A study of Mus musculus with 8 samples.

Results

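The genes described here are 7 factors that parietal endoderm cells secrete or carry on their surface: Sparc, Fst, Bmper, Wnt11, Plat, Thbd and Pth1r. They were found by symbol, as 7 of the 21182 gene rows of the deposited table, and all 7 were present. Each row holds 1 RPKM value per embryo, a read count scaled to gene length and to library size. The data are RNA-seq libraries of 8 single whole mouse embryos of C57BL/6 background at embryonic day E6.75, when gastrulation begins. Of these embryos, 4 carry the genotype label Tet1/2/3 TKO, a combined knockout of the 3 TET dioxygenases that oxidise 5-methylcytosine, and 4 the label Control. The description label of each Control embryo contains WT, short for wild type, and the labels spell out that genotype no further. The alleles and the breeding remain unstated in the labels. The 7 genes were selected on their RPKM values in these same embryos, namely on a higher mean in the TKO-labelled group, so these differences are given as a description, with no test.

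The parietal endoderm arises from the primitive endoderm, spreads over the inner face of the trophoblast and lays down Reichert's membrane, a thick basement membrane of laminin, collagen IV and nidogen around the embryo. In cultured mouse cells its differentiation is driven by retinoic acid together with cyclic AMP, and in the embryo the PTHrP hormone of trophoblast cells can act on it through Pth1r. Plasminogen activator and thrombomodulin, the products of Plat and Thbd, are classical markers of the differentiated cells. Whole embryos hold this layer together with all others, so the values do not place a transcript in a cell type. More parietal endoderm cells and more RNA per such cell cannot be told apart in them.

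The targeted genes check the labels. Tet1 stood at 15.3, 9.50, 9.21 and 11.7 RPKM in TKO-labelled embryos 1 to 4, against 5.04, 5.25, 4.93 and 5.76 RPKM in Control embryos 1 to 4. Tet2 lay at 0.598 to 0.993 RPKM in TKO-labelled embryos and at 0.444 to 0.850 RPKM in Control embryos, and Tet3 at 1.14 to 1.68 RPKM in TKO-labelled and 1.73 to 2.08 RPKM in Control embryos. The Tet1 level goes against a loss of the transcript, and 1 value per gene cannot show whether single exons are missing, so the embryos are called TKO-labelled throughout. Depth, estimated from the smallest RPKM values, was about 9900000 to 18960000 reads in TKO-labelled embryos, lowest in replicate 1, and 12380000 to 16420000 reads in Control embryos. Nothing in the labels names a litter, sex or batch.

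Sequences upstream of the transcription start were matched by symbol in RefSeq (build GRCm38.p6) for Sparc, Bmper, Pth1r and Wnt11. Of these, 3 windows of 250 bases are shown because the genes had closely similar profiles over the embryos while their upstream sequences differ widely in CpG, the dinucleotide on which TET enzymes act. The capitals mark CpG. The windows lie at chr11:55420081-55420330 on the minus strand (Sparc), at chr9:23222826-23223075 on the plus strand (Bmper) and at chr7:98834862-98835111 on the plus strand (the more upstream of the Wnt11 starts).
Sparc: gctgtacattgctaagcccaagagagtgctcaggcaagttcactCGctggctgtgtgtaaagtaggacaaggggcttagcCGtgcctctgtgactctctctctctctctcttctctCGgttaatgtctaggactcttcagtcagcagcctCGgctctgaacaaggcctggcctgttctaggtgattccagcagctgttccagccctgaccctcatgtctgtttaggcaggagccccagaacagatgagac
Bmper: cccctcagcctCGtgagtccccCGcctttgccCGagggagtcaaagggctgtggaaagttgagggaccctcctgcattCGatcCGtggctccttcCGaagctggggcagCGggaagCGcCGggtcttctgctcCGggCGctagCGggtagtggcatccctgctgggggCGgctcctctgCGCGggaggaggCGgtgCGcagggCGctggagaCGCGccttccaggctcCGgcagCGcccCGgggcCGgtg
Wnt11: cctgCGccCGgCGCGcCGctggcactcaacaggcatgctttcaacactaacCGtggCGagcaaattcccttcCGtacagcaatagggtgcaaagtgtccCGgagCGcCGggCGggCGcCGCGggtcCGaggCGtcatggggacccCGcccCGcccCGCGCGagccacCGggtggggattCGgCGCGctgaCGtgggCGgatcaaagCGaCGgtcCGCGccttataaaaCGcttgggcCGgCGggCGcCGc

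The Sparc window held 4 CpG, the Bmper window 24 and the Wnt11 window 37, beside a median of 6 over 32851 mouse windows of this length. A count of at least 37 occurred in 2.20% of all windows and one of at least 4 in 62.2%. The other Wnt11 window held 16 CpG and the 3 Pth1r windows 3, 16 and 22. Searched on both strands, the GATA core GATAA occurred in 1 of these 7 windows, a Pth1r one, and in 22.6% of all windows. TGACG, part of the cyclic AMP response element, occurred in both Wnt11 windows and in 1 Pth1r window, and in 17.8% of all windows. GGGCGG, a GC box, was found upstream of Bmper, of Wnt11 and of Pth1r and in 32.7% of all windows, ACAAT, a core of SOX sites, in 0 of the 7 and 27.7% of all, and TATAAA in the Wnt11 window shown and 12.4% of all. Matches of different motifs overlapped in 0 of the 7 windows. A match or its absence describes these letters only. Methylation was not measured here.

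Each of the 7 genes averaged higher in TKO-labelled than in Control embryos, by 1.95-fold (Pth1r) to 5.51-fold (Plat). The higher values came from TKO replicates 2, 3 and 4. TKO replicate 1 lay within the Control range for 6 of the 7 genes and below it for Fst.

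Sparc encodes a calcium- and collagen-binding glycoprotein of the extracellular matrix and was the most abundant of the 7. It stood at 112, 219, 293 and 214 RPKM in TKO-labelled embryos 1 to 4, against 103, 64.4, 72.6 and 119 RPKM in Control embryos 1 to 4. TKO replicates 2 to 4 were above each Control embryo, and replicate 1 was just under Control replicate 4. The means were 209 ± 74.2 RPKM in TKO-labelled and 89.6 ± 25.4 RPKM in Control embryos (SD, n = 4 each), and the difference was 1.18 (SE 0.35) on the log2(RPKM + 1) scale, which is used for all differences below.

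Fst encodes follistatin, a secreted protein that binds activin and blocks it. Its values were 4.61, 87.8, 70.0 and 31.6 RPKM in TKO-labelled embryos 1 to 4, against 11.2, 12.0, 13.8 and 22.0 RPKM in Control embryos 1 to 4. The TKO-labelled group thus held both the lowest and the 3 highest of the 8 values. The means were 48.5 ± 37.5 RPKM in TKO-labelled and 14.8 ± 4.94 RPKM in Control embryos, and the log2 difference of 1.10 had an SE of 0.93, the widest of the 7. Without TKO replicate 1 the difference was 1.95, and without TKO replicate 2 it was 0.62. Fst and Bmper had their highest value in TKO replicate 2, and the other 5 genes in TKO replicate 3.

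Bmper encodes a secreted protein that binds bone morphogenetic proteins (BMPs) and tunes their signalling. It was at 0.797, 6.65, 6.38 and 4.13 RPKM in TKO-labelled embryos 1 to 4, against 1.07, 0.458, 0.570 and 1.38 RPKM in Control embryos 1 to 4. Replicates 2 to 4 stood far above all Control embryos, with the group means 5.17-fold apart (4.49 ± 2.71 RPKM in TKO-labelled and 0.868 ± 0.430 RPKM in Control embryos, log2 difference 1.38, SE 0.51). Wnt11, a secreted ligand that acts mainly through noncanonical Wnt signalling, was at 1.08, 3.64, 4.21 and 3.36 RPKM in TKO-labelled embryos 1 to 4, against 1.06, 0.887, 1.06 and 1.37 RPKM in Control embryos 1 to 4. Its Control values were the tightest of the 7, with an SD of 0.202 RPKM around a mean of 1.10 RPKM, and the TKO-labelled mean was 3.07 ± 1.37 RPKM (log2 difference 0.88, SE 0.31).

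Plat encodes tissue plasminogen activator, the secreted protease that turns plasminogen into plasmin. It was at 0.358, 1.56, 2.38 and 1.88 RPKM in TKO-labelled embryos 1 to 4, against 0.215, 0.053, 0.221 and 0.632 RPKM in Control embryos 1 to 4. Plat was the lowest of the 7 in both groups, and its means of 1.54 ± 0.860 RPKM in TKO-labelled and 0.280 ± 0.247 RPKM in Control embryos had the largest ratio, at 5.51. On the log2 scale with a pseudocount of 1 that ratio shrinks to a difference of 0.93 (SE 0.32). With a pseudocount of 0.1 it was 2.09.

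Of the 2 surface proteins, thrombomodulin, the product of Thbd, binds thrombin and redirects it to activate the anticoagulant protein C. Thbd was at 0.271, 4.15, 7.21 and 1.92 RPKM in TKO-labelled embryos 1 to 4, against 0.407, 0.036, 0.646 and 1.98 RPKM in Control embryos 1 to 4. It was the only one of the 7 in which TKO replicate 4 did not exceed every Control embryo. The means were 3.39 ± 3.00 RPKM in TKO-labelled and 0.768 ± 0.848 RPKM in Control embryos (log2 difference 1.11, SE 0.66, and 0.71 without TKO replicate 3). Thbd has 1 annotated transcript of 3723 bases, at which the lowest value, in Control replicate 2, amounts to about 1.99 reads and the highest, in TKO replicate 3, to about 509 reads.

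Pth1r encodes the receptor for parathyroid hormone and PTHrP, which signals through cyclic AMP. It was at 23.3, 44.9, 62.6 and 34.1 RPKM in TKO-labelled embryos 1 to 4, against 29.9, 14.2, 15.3 and 25.0 RPKM in Control embryos 1 to 4. Replicates 2 to 4 were above all Control embryos, by a narrow margin for replicate 4, while replicate 1 lay between Control replicates 4 and 3. The means of 41.2 ± 16.8 RPKM in TKO-labelled and 21.1 ± 7.60 RPKM in Control embryos were 1.95-fold apart, the smallest ratio of the 7 (log2 difference 0.91, SE 0.39).

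**Figure D1:**
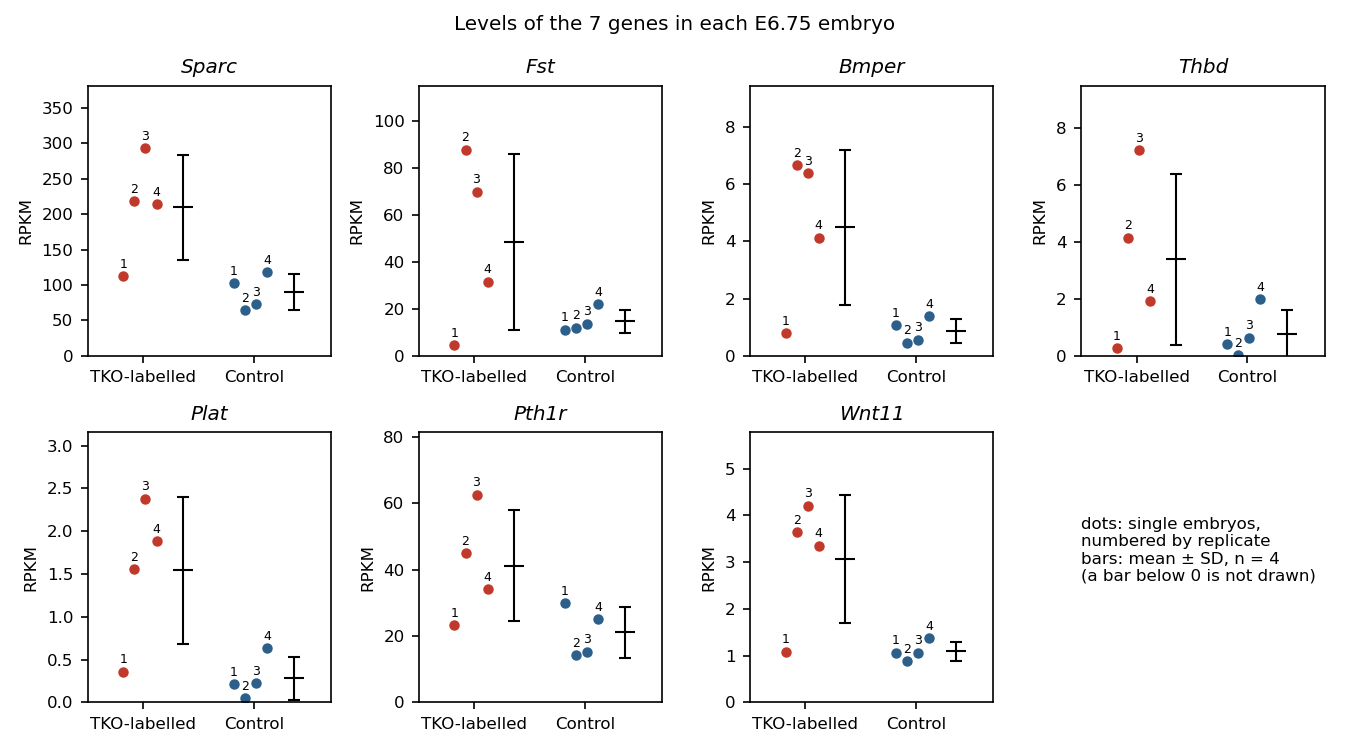
RPKM of the 7 genes in single embryos (dots numbered by replicate, TKO-labelled left, Control right), with mean and SD of each group (n = 4) beside them, on linear axes that start at 0. TKO replicates 2 and 3 lie above every Control embryo for all 7 genes, and TKO replicate 1 for 0 of them.

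The pattern over embryos was shared. TKO replicates 2 and 3 exceeded every Control embryo in 7 of 7 genes, replicate 4 in 6 and replicate 1 in 0. Among Control embryos, which differ in nothing the labels give, replicate 4 was highest in 6 of the 7 genes and replicate 2 lowest in 6 of the 7. In 0 of the 7 genes did the groups separate fully. Over the 10451 genes tested, which had at least 1 RPKM in at least 4 embryos, TKO-labelled embryos lay above Control embryos without overlap in 7.55%, and at least 3 of them lay above every Control embryo in 22.0%. At least 3 TKO-labelled embryos above every Control embryo were found for 6 of the 7 genes, a count that their choice had already used. The opposite separation, with Control embryos above without overlap, occurred in 1.86% of tested genes. Of the 7, 6 passed that filter. Plat reached 1 RPKM in 3 embryos, all TKO-labelled, and Thbd and Bmper passed in large part through TKO-labelled embryos. The median difference of the 7 was 1.10, beside 0.09 over all tested genes, of which 66.5% had a positive difference.

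In TKO-labelled embryos the order of the levels per kilobase was Sparc, Fst, Pth1r, Bmper, Thbd, Wnt11 and Plat. In Control embryos it was Sparc, Pth1r, Fst, Wnt11, Bmper, Thbd and Plat. Sparc stood apart from the next gene in both groups, as did Pth1r from Bmper in TKO-labelled and Fst from Wnt11 in Control embryos. The ranges of all other neighbours in each order overlapped. In TKO-labelled embryos the range of Fst also reached down into those of Bmper and Thbd, through replicate 1.

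Profiles were compared as the root mean square distance between standardised log2(RPKM + 1) values over the 8 embryos, where 0 means the same shape and 1 a typical gap of 1 SD per embryo. Within the 7, Bmper and Wnt11 were the closest pair (0.17) and Fst and Pth1r the farthest (0.70). Among 6142 other genes with a mean of at least 5 RPKM, the nearest to the mean profile of the 7 were Col4a1 (0.13), Lama1 (0.15), Col4a2 (0.16), Gata6 (0.18), P4ha2 (0.18) and Rnf185 (0.21). The median over those genes was 1.24 and the lowest 1% lay under 0.47. Col4a1, Col4a2 and Lama1 encode chains of collagen IV and laminin, Gata6 a transcription factor of the primitive endoderm and P4ha2 a collagen prolyl hydroxylase. Rnf185, a ubiquitin ligase gene, shared the shape at a small size, at 12.6 ± 0.973 RPKM in TKO-labelled and 11.4 ± 0.367 RPKM in Control embryos.

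Taken singly, 3 of the 7 had a gene of the basement membrane list nearest, and Wnt11 had 1 in second place. Nid1, which encodes the linker nidogen, was nearest to Sparc (0.16), followed by Col4a1. Lamc1, a laminin chain gene, was nearest to Plat (0.13), followed by Lama1, and Col4a1 to Bmper (0.16), followed by Gata6. For Wnt11 the nearest were Gata6 (0.18) and Col4a2. The others had different neighbours: Thbd the transcriptional coregulator gene Cited2 (0.18) and P4ha2, Fst the antiproliferative gene Btg1 (0.16) and Maged1, and Pth1r the mannosidase gene Man1a2 (0.27) among its 2 nearest. All of these distances rest on the same 8 libraries and describe shape only. Each shape includes the group difference on which the 7 were chosen. Their nearness to genes that are higher in TKO-labelled embryos therefore follows in part from that choice and is no test.

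**Figure D2:**
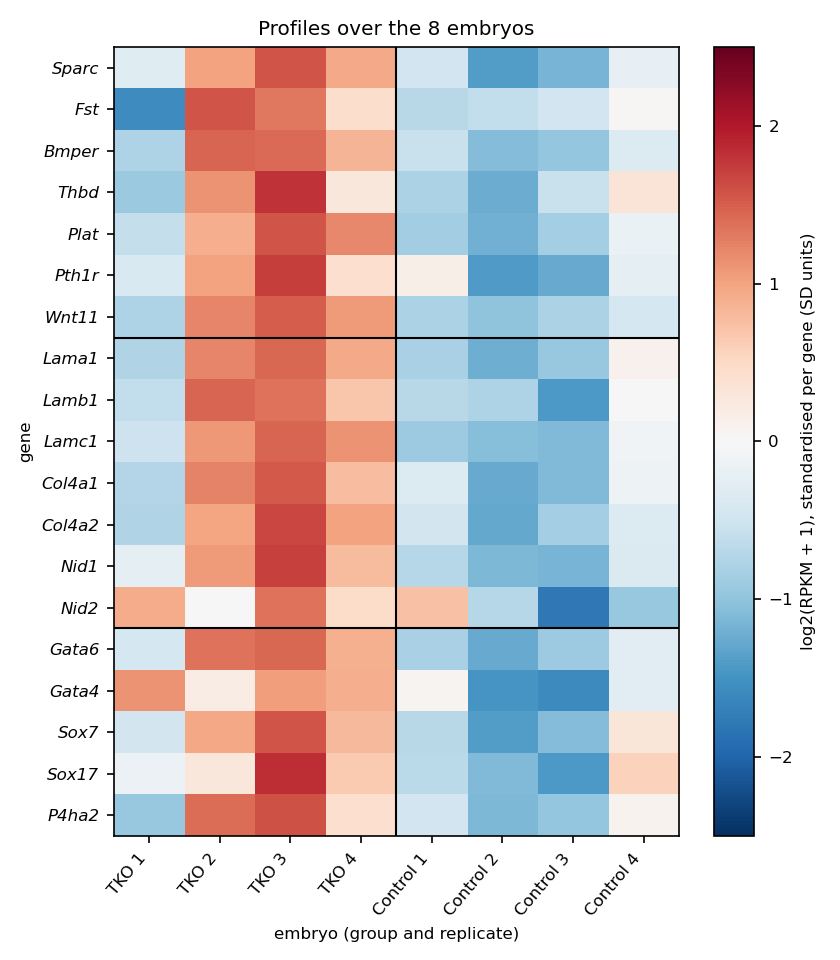
Standardised log2(RPKM + 1) of the 7 genes (top block), basement membrane genes (middle) and Gata6, Gata4, Sox7, Sox17 and P4ha2 (bottom). Columns are TKO-labelled embryos 1 to 4 and Control embryos 1 to 4 (red above and blue below the mean of the gene). TKO replicates 2 to 4 are high and TKO replicate 1 resembles the Control embryos in the top block, whereas Nid2 and Gata4 are also high in TKO replicate 1.

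The basement membrane list put beside the 7 holds the genes of Reichert's membrane. Its mean level was 2.78, 4.22, 4.59 and 4.00 in TKO-labelled embryos 1 to 4, against 2.72, 2.28, 2.25 and 3.12 in Control embryos 1 to 4, on the log2(RPKM + 1) scale. Expressed relative to that mean in the same embryo, the difference between groups was -0.13 (SE 0.12) for Sparc, -0.20 (SE 0.56) for Fst, 0.08 (SE 0.14) for Bmper and -0.19 (SE 0.30) for Thbd. It was -0.38 (SE 0.17) for Plat, -0.40 (SE 0.21) for Pth1r and -0.43 (SE 0.18) for Wnt11. Relative to the basement membrane genes the values were thus negative for 6 of the 7 genes, and that of Fst was 0.27 without TKO replicate 1. The positive value, that of Bmper, was -0.04 without TKO replicate 2. The sign for Plat and Thbd depended on the pseudocount. With 0.1 in place of 1 the relative difference was 0.65 for Plat and 0.50 for Thbd. The sign was the same under both for Bmper (0.56 with 0.1), Wnt11 (-0.17), Sparc (-0.25), Fst (-0.33) and Pth1r (-0.50). Relative to the other parietal endoderm markers all 7 were higher in TKO-labelled embryos, by 0.13 (Wnt11, SE 0.16) to 0.63 (Bmper, SE 0.30), with 0.43 (SE 0.12) for Sparc. Relative to visceral endoderm markers, the other primitive endoderm derivative, the 7 were higher in TKO-labelled embryos, by 0.58 (Wnt11, SE 0.45) to 1.08 (Bmper, SE 0.57). Each relative value is the gene's own difference less that of the list mean. The latter was 1.31 for the basement membrane, 0.75 for the other parietal and 0.30 for the visceral endoderm markers. Since the 7 were chosen on their own difference, the positive signs follow in part from that choice and are no test.

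**Figure D3:**
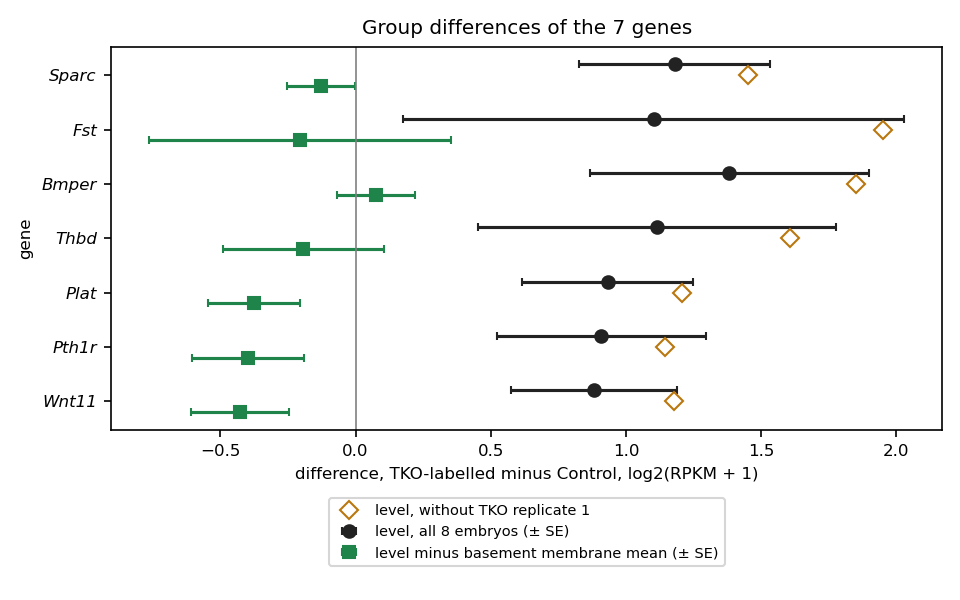
Difference between TKO-labelled and Control means of log2(RPKM + 1) for each of the 7 genes: over all 8 embryos with its SE (circles), without TKO replicate 1 (diamonds), and after subtracting the mean of the basement membrane genes in each embryo (squares, with SE). Levels differ by 0.88 to 1.38, and the values relative to the basement membrane by -0.43 to 0.08.

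The pathways in which the 7 genes act, the parietal endoderm and other cell types were then examined in 14 lists with 148 genes. They were tested with limma on log2(RPKM + 1) over all 10451 genes, with Benjamini-Hochberg adjustment. Over all genes 1, AI428936 (named after its value was seen), passed an adjusted p of 0.05 with higher values in TKO-labelled embryos (0.00957%) and 0 with lower values. At an unadjusted p under 0.05, 1448 genes (13.9%) had higher and 376 (3.6%) lower values in TKO-labelled embryos. The 14 lists held 0 genes past the adjusted threshold, so the values that follow are descriptions of genes that did not pass.

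Markers of the parietal endoderm were detected in each embryo: the 8 basement membrane genes summed to 61.8 to 288 RPKM in TKO-labelled and 39.0 to 83.8 RPKM in Control embryos, and the 10 other markers to 209 to 454 RPKM in TKO-labelled and 138 to 246 RPKM in Control embryos. Several of them are also made by visceral endoderm or other cells. Most of the second sum came from Dab2 and Srgn, named here for their high values. Dab2 stood at 102 to 151 RPKM in TKO-labelled and 87.3 to 152 RPKM in Control embryos. Srgn stood at 69.1 to 217 RPKM in TKO-labelled and 31.2 to 75.7 RPKM in Control embryos. All 7 tested basement membrane genes had positive differences (median 1.48, 7 at an unadjusted limma p under 0.05), with Hspg2, the perlecan gene, under 1 RPKM in all 8 embryos. Nid1 averaged 23.6 ± 12.3 RPKM in TKO-labelled and 6.26 ± 1.94 RPKM in Control embryos (1.64, limma adjusted p = 0.132), and Lamc1 averaged 15.8 ± 8.15 RPKM in TKO-labelled and 3.54 ± 1.95 RPKM in Control embryos (1.77, limma adjusted p = 0.155). All 10 other parietal endoderm markers had positive differences (median 0.75, 6 at an unadjusted limma p under 0.05), beside the 66.5% of all tested genes that did. Among them, Gata6 averaged 10.2 ± 4.08 RPKM in TKO-labelled and 3.63 ± 0.985 RPKM in Control embryos (1.20, limma adjusted p = 0.145). Gata4, another primitive endoderm factor, averaged 9.21 ± 1.40 RPKM in TKO-labelled and 4.96 ± 1.69 RPKM in Control embryos (0.81, limma adjusted p = 0.155) and, unlike the 7, was higher in TKO replicate 1 (10.2 RPKM) than in every Control embryo. Without TKO replicate 1, limma called 33 of all genes higher (0.316%) and 7 lower (0.067%). The genes called higher included 7 of these lists, Lama1, Lamb1, Lamc1, Col4a1, Col4a2, Nid1 and Gata6 (limma adjusted p 0.0170 to 0.0403). All of them were lowest among TKO-labelled embryos in the replicate left out. Leaving out any other single embryo called 0 genes of the lists, so these calls rest on that omission.

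For Sparc, 4 genes of related matrix proteins and collagen receptors were tested, with 0 past the threshold and a median of 0.02 (-0.05 after median-ratio scaling). The collagen receptor gene Ddr1 averaged 3.97 ± 1.14 RPKM in TKO-labelled and 3.44 ± 0.699 RPKM in Control embryos. Fstl1, which encodes a secreted protein with a SPARC-like module, averaged 10.2 ± 4.21 RPKM in TKO-labelled and 11.4 ± 3.84 RPKM in Control embryos. In Fstl1, TKO replicate 1 was the lowest of the 8 embryos, as for Fst, and without it the difference was 0.070 in place of -0.18.

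For Fst, the ligand genes Inhba and Inhbb were under 1 RPKM in all 8 embryos, while the activin receptor gene Acvr2b was abundant. Acvr2b stood at 40.9, 22.7, 25.0 and 24.3 RPKM in TKO-labelled embryos 1 to 4, against 29.1, 35.2, 28.0 and 40.3 RPKM in Control embryos 1 to 4 (-0.25, limma adjusted p = 0.513). It was highest in TKO replicate 1 and lowest in TKO replicate 2, where Fst was lowest and highest. Among Control embryos, however, Acvr2b and Fst were both highest in replicate 4. Fstl3, another follistatin family gene, averaged 1.13 ± 0.595 RPKM in TKO-labelled and 1.57 ± 0.475 RPKM in Control embryos.

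For Bmper, 5 of 14 BMP ligand and modulator genes were tested, with a median of 0.23. Noggin, the secreted BMP inhibitor encoded by Nog, was at 0.629, 2.60, 4.39 and 1.86 RPKM in TKO-labelled embryos 1 to 4, against 0.598, 0.835, 0.750 and 1.95 RPKM in Control embryos 1 to 4 (0.64, limma adjusted p = 0.334). TKO replicates 2 and 3 were again the highest. The procollagen and chordin protease gene Bmp1 averaged 3.33 ± 1.02 RPKM in TKO-labelled and 2.54 ± 0.977 RPKM in Control embryos, with its highest value in TKO replicate 1.

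For Plat and Thbd, 10 genes of the plasminogen and thrombin pathway were tested (median -0.06, with 4 positive and 6 negative). Tissue factor, encoded by F3, starts the thrombin cascade, and was at 2.26, 11.9, 7.71 and 9.75 RPKM in TKO-labelled embryos 1 to 4, against 3.74, 2.03, 2.13 and 5.71 RPKM in Control embryos 1 to 4 (0.93, limma adjusted p = 0.270). It shared the low value of TKO replicate 1. Plaur, the urokinase receptor gene, averaged 10.4 ± 3.99 RPKM in TKO-labelled and 5.87 ± 2.44 RPKM in Control embryos (0.75, limma adjusted p = 0.225), with its highest value, 16.3 RPKM, in TKO replicate 1. Plau and Plg, the genes of urokinase and of plasminogen itself, were under 1 RPKM in every embryo.

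For Pth1r, the ligand genes Pthlh and Pth were under 1 RPKM in all 8 embryos. Of the 9 tested genes of the receptor's signalling chain (median 0.08, but -0.01 after median-ratio scaling), Ramp2, a receptor-modifying protein gene, averaged 14.3 ± 1.96 RPKM in TKO-labelled and 10.7 ± 1.31 RPKM in Control embryos (0.38, limma adjusted p = 0.209). Adcy6, an adenylyl cyclase gene, averaged 1.60 ± 0.399 RPKM in TKO-labelled and 0.967 ± 0.177 RPKM in Control embryos (0.40, limma adjusted p = 0.221). For Wnt11, 14 genes of noncanonical Wnt signalling were tested (median 0.08, with 7 positive and 7 negative). Ptk7, a co-receptor gene, averaged 2.59 ± 0.291 RPKM in TKO-labelled and 1.55 ± 0.270 RPKM in Control embryos (0.50, limma adjusted p = 0.156), and the small GTPase gene Rhoa averaged 113 ± 23.4 RPKM in TKO-labelled and 79.7 ± 4.17 RPKM in Control embryos (0.48, limma adjusted p = 0.173). Both were higher in all 4 TKO-labelled embryos, replicate 1 included, in which they differ from Wnt11.

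**Figure D4:**
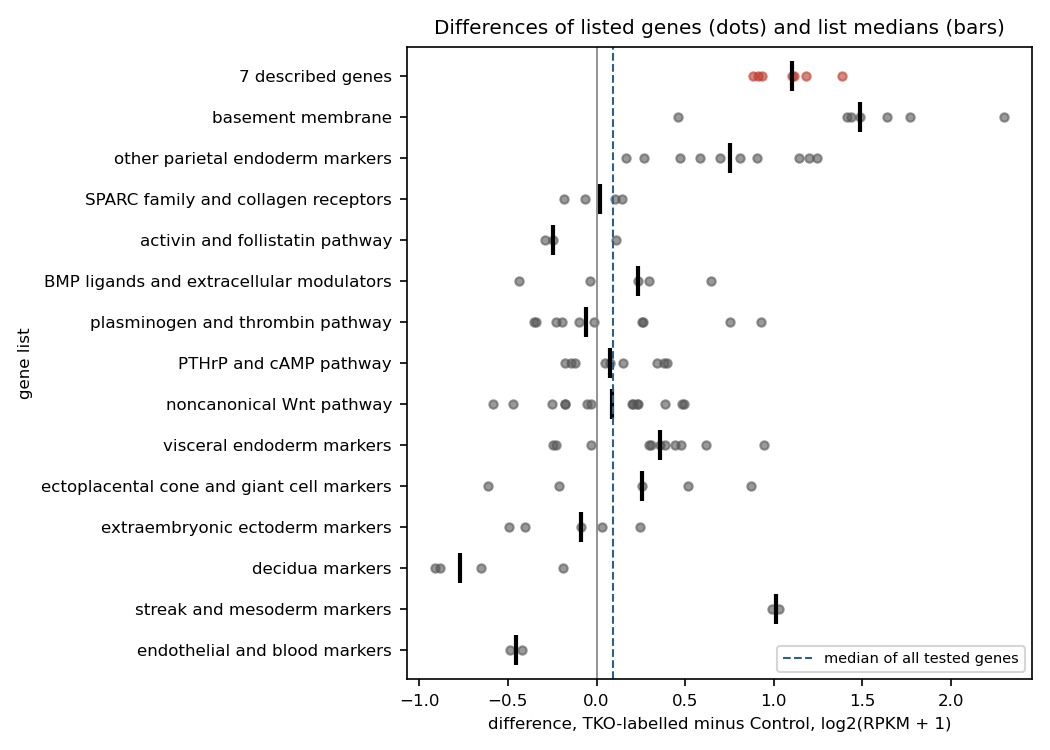
Differences between TKO-labelled and Control means of log2(RPKM + 1) for the 7 genes (top row) and the tested genes of 14 lists (dots), with list medians (bars) and the median of all 10451 tested genes (dashed line, 0.09). The 7 genes (median 1.10), the basement membrane genes (1.48) and the other parietal endoderm markers (0.75) lie to the right. So do the 2 tested streak and mesoderm markers, Mixl1 (1.03) and T (0.99). The 6 pathway lists have medians of -0.25 to 0.23.

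Markers of other cell types that a dissected embryo can hold varied as well. Summed over the list, the 8 decidua markers reached 25.9, 13.3, 371 and 56.4 RPKM in TKO-labelled embryos 1 to 4, against 188, 2.74, 381 and 233 RPKM in Control embryos 1 to 4. The decidual prolactin gene Prl8a2 alone ranged over 11.8 to 354 RPKM in TKO-labelled and 1.32 to 336 RPKM in Control embryos. Among TKO-labelled embryos the decidua sum was highest in replicate 3, where the 7 genes also had their highest sum (446 RPKM), and lowest in replicate 2, where they had their next highest (367 RPKM). Among Control embryos it was lowest in replicate 2, where the 7 genes also had their lowest sum (92.1 RPKM), and highest in replicate 3, where they summed to 104 RPKM, below Control replicates 1 and 4. Of the other decidua markers, Hand2 averaged 1.57 ± 1.68 RPKM in TKO-labelled and 4.26 ± 3.64 RPKM in Control embryos and Des averaged 4.51 ± 3.90 RPKM in TKO-labelled and 11.6 ± 10.4 RPKM in Control embryos. Their part in the levels of the 7 genes was not tested.

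The 8 ectoplacental cone and giant cell markers summed to 17.5 to 221 RPKM in TKO-labelled and 22.6 to 52.0 RPKM in Control embryos. The highest sum was that of TKO replicate 3, in which Sparc, Thbd, Plat, Pth1r and Wnt11 were highest too, and TKO replicate 2 had the lowest. Giant cells can also express Thbd, and their part in its value was not tested. Ascl2, a trophoblast regulator, averaged 10.1 ± 6.56 RPKM in TKO-labelled and 13.6 ± 2.18 RPKM in Control embryos. Hand1, the giant cell factor, averaged 3.40 ± 1.31 RPKM in TKO-labelled and 3.97 ± 0.798 RPKM in Control embryos. These were the 2 tested genes of that list with negative differences, while 3 had positive ones (list median 0.25). Of the extraembryonic ectoderm markers, summed to 107 to 124 RPKM in TKO-labelled and 109 to 159 RPKM in Control embryos, Elf5 averaged 27.1 ± 4.63 RPKM in TKO-labelled and 36.5 ± 8.48 RPKM in Control embryos (-0.41, limma adjusted p = 0.264). Tcfap2c averaged 22.9 ± 8.72 RPKM in TKO-labelled and 31.1 ± 3.58 RPKM in Control embryos. Of the 5 tested extraembryonic ectoderm markers, 2 had positive and 3 had negative differences (median -0.09).

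Streak and mesoderm markers bear on Fst, which the early mesoderm can express. They summed to 13.3, 96.8, 23.4 and 15.7 RPKM in TKO-labelled embryos 1 to 4, against 12.3, 15.2, 13.3 and 8.22 RPKM in Control embryos 1 to 4. The embryo with the highest sum, TKO replicate 2, was also highest for Fst and Bmper, and held 34.0 RPKM of T and 48.3 RPKM of Mixl1, 2 transcription factor genes of the primitive streak. Of the 7 streak and mesoderm markers these 2 were tested, and both had positive differences. They were 1.03 for Mixl1 (limma adjusted p = 0.239) and 0.99 for T (limma adjusted p = 0.386). Without TKO replicate 2 they were 0.53 for Mixl1 and 0.37 for T. The part of streak and mesoderm cells in the Fst level was not tested. Visceral endoderm markers summed to 825 to 1035 RPKM in TKO-labelled and 401 to 1346 RPKM in Control embryos. Of the 11 tested, 8 had positive and 3 had negative differences (median 0.36). Among them, the retinol carrier gene Rbp4 averaged 59.1 ± 12.6 RPKM in TKO-labelled and 31.6 ± 14.3 RPKM in Control embryos (0.95, limma adjusted p = 0.160). Soat2, a sterol acyltransferase gene, averaged 15.5 ± 2.79 RPKM in TKO-labelled and 11.5 ± 4.20 RPKM in Control embryos. Endothelium also carries Thbd and Plat. Of the 9 endothelial and blood markers, 7 were under 1 RPKM in all embryos, with the globin genes Hbb-bh1 and Hba-x listed at 0, and their sum was 2.18 to 8.86 RPKM in TKO-labelled and 4.70 to 12.1 RPKM in Control embryos. Cdh5, the endothelial cadherin gene, averaged 1.03 ± 1.35 RPKM in TKO-labelled and 1.73 ± 1.61 RPKM in Control embryos. Among TKO-labelled embryos it was highest in replicate 3 (3.00 RPKM), as Thbd and Plat were. Over all 8 embryos Cdh5 was highest in Control replicate 3 (3.92 RPKM), where Thbd was at 0.646 RPKM and Plat at 0.221 RPKM. The part of endothelium in the levels of Thbd and Plat was not tested. Gata1, which trophoblast cells can share with blood, averaged 4.10 ± 2.10 RPKM in TKO-labelled and 5.62 ± 1.03 RPKM in Control embryos.

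**Figure D5:**
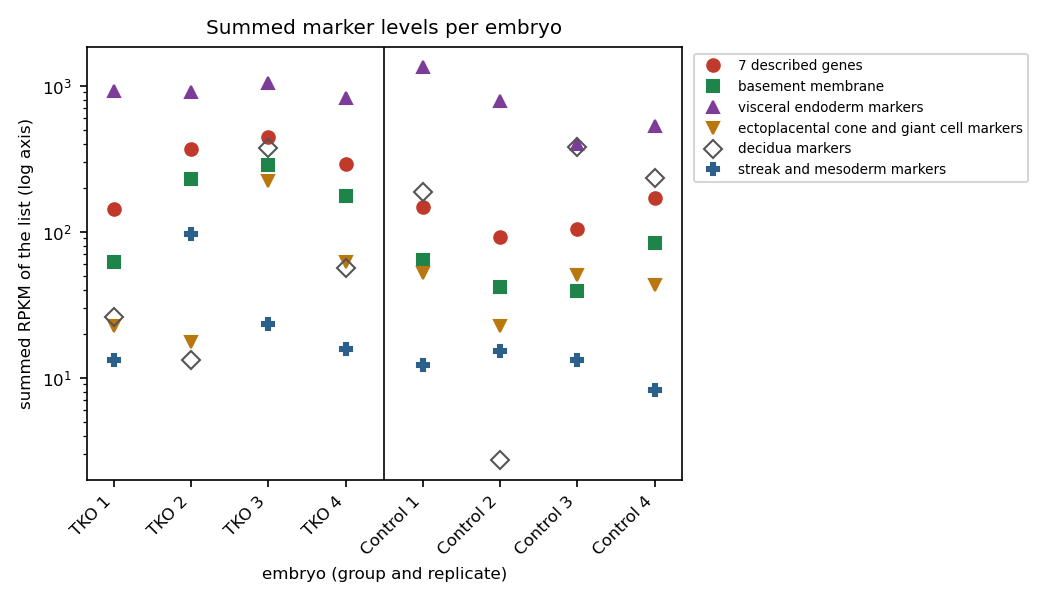
Summed RPKM of the 7 genes and of 5 marker lists in each embryo, TKO-labelled left and Control right, on a log axis. The sums of the 7 genes and of the basement membrane genes are highest in TKO replicates 2, 3 and 4, while decidua markers reach 371 RPKM in TKO replicate 3 and 381 RPKM in Control replicate 3.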

How the data were processed

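Total RNA of 8 single embryos was amplified as cDNA (SMARTer kit), converted to libraries with Nextera XT and sequenced on Illumina machines, per the labels' protocols. The authors deposited 1 table of RPKM values, 1 column per embryo, which is taken as RPKM from the table's name and values. Per the submitters' processing notes, HTSeq (no version) and build mm9 were used in an unstated role. The aligner, annotation, strand setting and denominator of RPKM remain not given in the sources used here. The build differs from the reference used here, so no gene coordinates in mm9 are given and promoter windows are credited to GRCm38.p6. All 8 columns were matched to samples by label, with 0 left unmatched. Identical values above 1 RPKM made up at most 0.0666% in any pair of columns. Nothing in the labels beyond single embryos says how the replicates are related, so the p-values speak for these 8 embryos alone.

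Genes with at least 1 RPKM in at least 4 embryos were tested on log2(RPKM + 1) by limma 3.58.1 under R 4.3.3, using a variance trend, no covariate, two-sided p-values and Benjamini-Hochberg adjustment over 10451 genes at 0.05. Such differences understate the change of low genes. The fit was tested on simulated data. Depth was set to the read total at which the largest share of values from 0.03 to 1 RPKM, for genes with 1 GENCODE M21 transcript, came out at 1 to 3 whole reads within 2%. Since transcript lengths come from another build, these are not exact reads, and count tests were not used. The 7 genes, the lists and the tests were chosen with earlier results of these data known. Named are the 7 genes, Tet1, Tet2 and Tet3, the 2 genes with the smallest p in each list (or those called), the 6 genes nearest to the mean profile and the 2 nearest to each gene. Some genes that this rule or the lists name are not reported here. Tfap2c was found under its older symbol Tcfap2c. Alternatives were another pseudocount, other filters, median-ratio scaling, a replicate block, no variance trend and leaving out each embryo.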

Additional observations from a re-analysis of the deposited data

Results flagged for a closer look

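Among 96 groups of 4 embryos (48 named genes in each group), 6 held an embryo whose gap to the nearest other, divided by the range of the group, exceeded Dixon's critical value at 95%. Chance gives about 1 in 20 groups, and none of the 6 concerns the 7 parietal endoderm factors. In TKO-labelled embryos these were replicate 1 for Acvr2b (40.9 RPKM, ratio 0.873) and replicate 2 for Mixl1 (48.3 RPKM, ratio 0.914). In Control embryos they were replicate 4 for Lamc1 (6.44 RPKM, ratio 0.865), replicate 1 for Rbp4 (52.9 RPKM, ratio 0.879), and replicate 2 for Tet2 (0.444 RPKM, ratio 0.865) and for Gata1 (4.07 RPKM, ratio 0.925).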

How the results depend on the processing

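All 7 genes kept a higher mean in TKO-labelled embryos under each alternative run, and their median difference ranged from 0.74 to 1.45 when 1 embryo was left out. Without TKO replicate 1 the differences were 1.45 for Sparc, 1.95 for Fst, 1.85 for Bmper, 1.61 for Thbd, 1.21 for Plat, 1.15 for Pth1r and 1.18 for Wnt11, and without TKO replicate 2 that of Fst was 0.62. Median-ratio scaling gave a median of 1.02, and moved the median of all tested genes to 0.02. Of 70 recomputed differences of the 7 genes, 1 moved by more than the spread between embryos, Plat with a pseudocount of 0.1. The median difference relative to the basement membrane mean was -0.20, and -0.34 to -0.11 without 1 embryo.

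Over all genes limma called 1 gene higher. It called 0 under the replicate block, 0 when low values were not filtered, and 0 to 33 without 1 embryo, the 33 without TKO replicate 1. It called 0 genes lower, and 0 to 7 without 1 embryo, the 7 again without TKO replicate 1. Of the listed genes it called 0, and 0 to 7 higher without 1 embryo, the 7 again without TKO replicate 1. The difference of Fstl1, -0.18 over all embryos, ranged over -0.39 to 0.070 when 1 embryo was left out, the highest without TKO replicate 1. The labels do not say whether embryos with the same replicate number share more than the number. Their deviations from the group means correlated at -0.00, 0.40, 0.26 and -0.02 for numbers 1 to 4. Of the 4 TKO-labelled embryos, 2 correlated best with their own number. At these depths values near 0.05 RPKM rest on a few reads, so the levels of Plat and Thbd in Control embryos are the least certain.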

Other observations

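Srgn and Bmp4 were chosen after their values were seen. Srgn, a proteoglycan gene, was lowest among TKO-labelled embryos in replicate 1, as all 7 genes were, and stood at 69.1, 131, 217 and 155 RPKM in TKO-labelled embryos 1 to 4, against 60.0, 31.2, 75.7 and 65.7 RPKM in Control embryos 1 to 4. Bmp4, the gene of a BMP ligand, was highest in TKO replicate 1, at 30.6 RPKM, against 11.8 to 17.4 RPKM in TKO replicates 2 to 4 and 10.4 to 19.4 RPKM in Control embryos.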
